A study of Mus musculus with 5 samples.

Results

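The Hox genes are the homeodomain transcription factor genes that stand side by side in 4 clusters of the mouse genome, and their peaks of SOX11 and SOX4 binding in keratinocytes are described here. A member was any protein-coding gene of the mm9 GENCODE annotation with the symbol Hoxa, Hoxb, Hoxc or Hoxd followed by a digit. This gave 39 genes, from 40 gene models because Hoxa3 has 2 models that were merged, among 22380 protein-coding gene models in all. A peak was counted for a member when its centre lay in the gene body or within 10 kb of it, and a peak was counted for a cluster's flanks when it lay within 100 kb outside the cluster. The Hox set by this rule held 19 SOX11 peaks, out of 21270, and 1 SOX4 peak, out of 2669.

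The binding data came from chromatin immunoprecipitation and sequencing (ChIP-seq) in primary mouse keratinocytes of the genotype Krt14-Cre;Sox11fl/fl;Sox4fl/fl, on a strain background labelled mixed 129SvEx:C57BL/6. By the study's methods the Krt14-Cre parents were FVB/N, so that strain also contributes, and the floxed parents also carried Sox12-/-, a locus whose genotype in these cells the labels do not give. The Krt14 promoter drives Cre in basal keratinocytes, and both endogenous genes are deleted in all of these cells, controls included. SOX11-FLAG or SOX4-FLAG was put back with a lentivirus whose expression was induced with doxycycline for 24 h, so the peaks are those of a tagged protein made from a transgene. Chromatin was sheared to fragments of 100 to 500 bp and precipitated with 10 µg of anti-FLAG antibody. Each factor had 2 replicates, combined by the authors in 1 list of peaks, and there was 1 control library, titled as input and with IgG in its antibody label, for which no list was used here. The age of the animals is not in the labels, but by the study's methods the cells came from newborns. The methods call the replicates biological, and the labels do not say whether they came from separate mice.

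The lists hold the chromosome, start and end of each peak and nothing else. No height, score or p-value stands beside a peak, the depth of the libraries is unknown, and there is no spread between replicates, so no test between SOX11 and SOX4 or between genes was possible. Intervals given below are exact 95% intervals (Clopper-Pearson for a share, Poisson for a density) and cover counting error only. They also treat peaks and genes as independent, which neighbours in a Hox cluster are not. The cell type was taken from the labels, since peak lists hold no expression of marker genes.

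Hox proteins give cells along the head-to-tail axis and along the limbs their position. Genes at the 3′ end of a cluster (low group numbers) are switched on early and toward the head, and genes at the 5′ end (high group numbers) later and toward the tail, and genes with the same number in different clusters are paralogs that descend from 1 ancestral gene. Skin keeps part of this positional code, and Hoxc13 is needed for hair and nail keratin genes. SOX11 and SOX4 are closely related SOXC proteins that bind DNA through an HMG box, which bends the double helix and recognises short words of the type CATTGT or CTTTGT.

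The sequences shown first are those of peaks at members that stand early in the SOX11 list and hold a SOX word. They are given 5′ to 3′ on the plus strand of mm9, in lower case, with the SOX word in capitals (read on the minus strand, CTTTGT appears as ACAAAG). The first lies across the end of the first coding exon of Hoxb9, a gene of thoracic skeletal patterning, at chr11:96133186-96133443, and is the only SOX11 peak of the Hox set that overlaps a SOX4 peak.
Hoxb9 coding exon peak: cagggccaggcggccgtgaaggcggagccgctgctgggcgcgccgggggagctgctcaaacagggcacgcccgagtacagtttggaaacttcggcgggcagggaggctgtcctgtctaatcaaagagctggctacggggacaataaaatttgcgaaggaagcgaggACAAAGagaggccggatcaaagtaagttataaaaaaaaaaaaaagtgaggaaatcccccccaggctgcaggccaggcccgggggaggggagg

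In the Hoxa cluster the earliest peak, at chr6:52190363-52190620, lies in an untranslated exon of Hoxa10, a gene needed for the uterus and for lumbar identity, and in the Hoxb cluster another peak, at chr11:96146851-96147108, lies in an untranslated exon of Hoxb7. For these only the surroundings of the SOX word are shown, on the plus strand, at chr6:52190465-52190490 and chr11:96146976-96147001.
Hoxa10 site: tcagaagcgaACAAAGgccaagaatc
Hoxb7 site: ccgcttttctCTTTGTttccgtgtgt

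The 3 sequences just shown each hold exactly 1 SOX word. The peak downstream of Hoxc4, at chr15:102872108-102872365, was the only Hox peak with a SOX word and an AP-1 word (TGAGTCA or TGACTCA) together. Its SOX word is shown from chr15:102872290-102872315 and its AP-1 word, bound in many tissues by FOS and JUN proteins, from chr15:102872187-102872213, both on the plus strand with the word in capitals.
Hoxc4 downstream, SOX: tttttggacaACAATGtatctgtaag
Hoxc4 downstream, AP-1: gactggaaggTGAGTCActtagaagtc

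SOX11 peaks were spread unevenly over the clusters. The Hoxb cluster (chr11:96055630-96229570, 174 kb) held 5 SOX11 peaks and the Hoxc cluster (chr15:102751534-102867274, 116 kb) held 4. The Hoxa cluster (chr6:52105366-52210874, 106 kb) held 1, and the Hoxd cluster (chr2:74506367-74603200, 96.8 kb) held 0. The only SOX4 peak was in the Hoxb cluster, and the flanks of all 4 clusters held 0 SOX4 peaks.

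**Figure D1:**
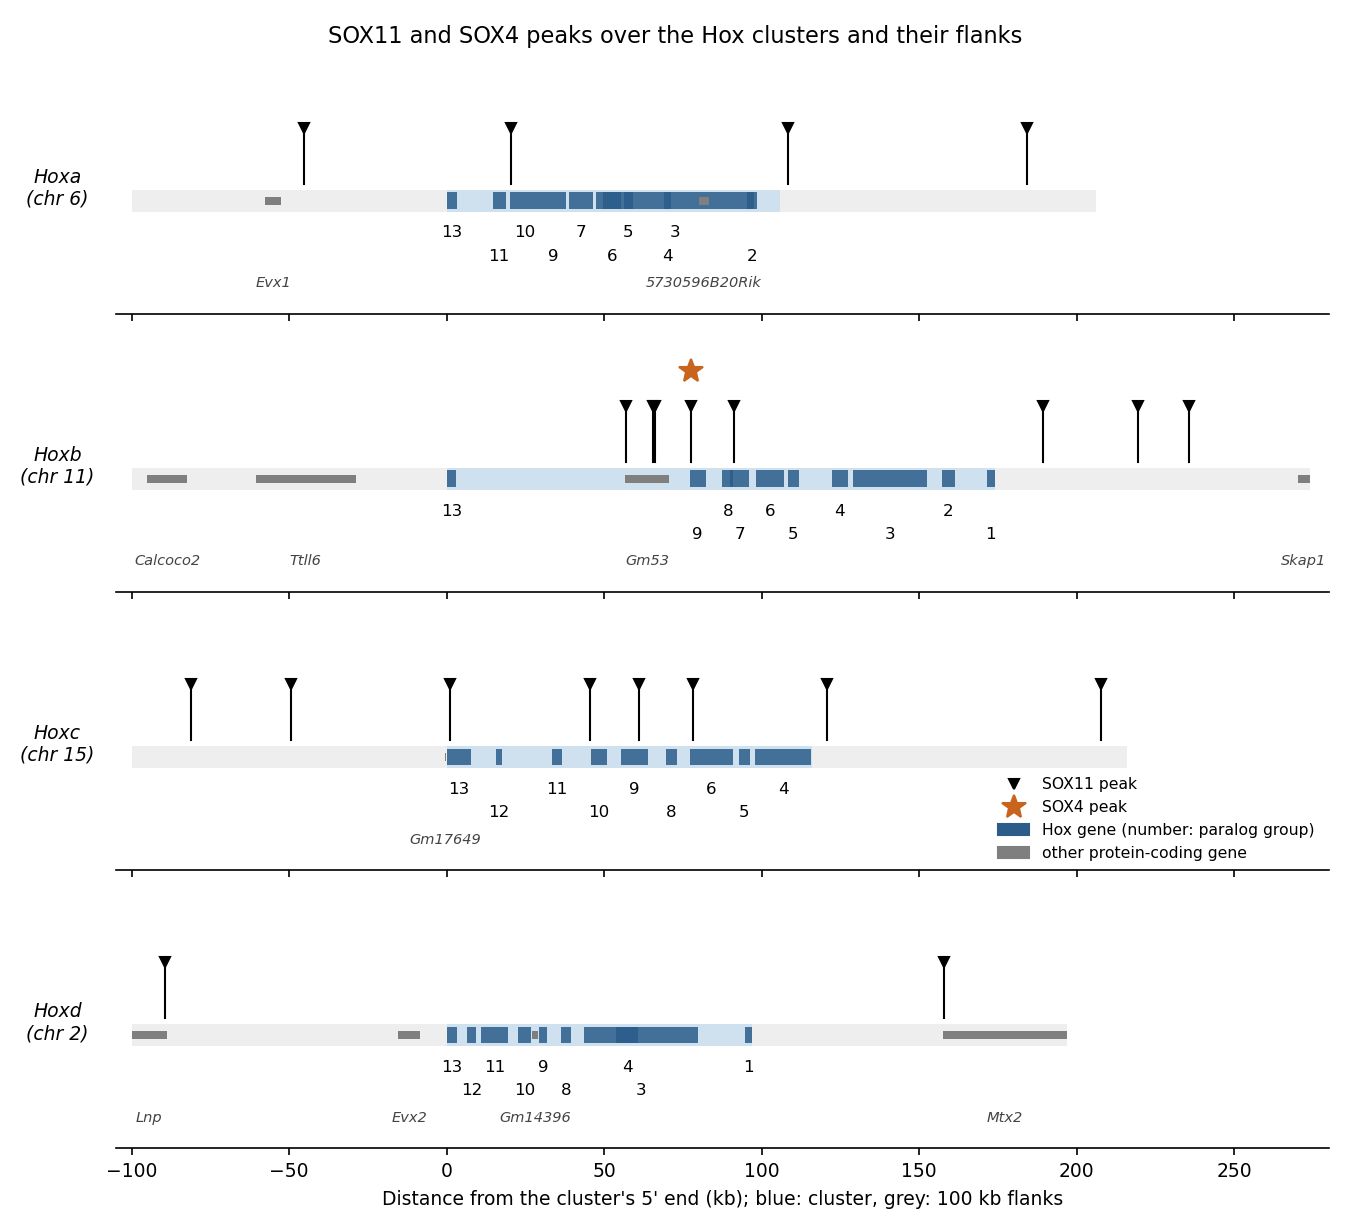
Peaks over the 4 clusters and 100 kb on either side, against the distance from the cluster's 5′ end in kb, with the group 13 gene at the left. Triangles mark SOX11 peaks, the star the SOX4 peak at Hoxb9, blue boxes the Hox genes with their group numbers and grey boxes other protein-coding genes; the Hoxd row has peaks only near Lnp and Mtx2, outside the cluster.

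The flanks held 3 SOX11 peaks at Hoxa, 3 at Hoxb, 4 at Hoxc and 2 at Hoxd, each over 200 kb. Taken over all clusters, there were 10 peaks in 492 kb of cluster and 12 in 800 kb of flank. That is 20.3 peaks per Mb in the clusters (9.75 to 37.4) and 15.0 per Mb in the flanks (7.75 to 26.2), a ratio of 1.35 with an interval of 0.524 to 3.42. The interval includes equal densities, so a difference between clusters and flanks was not detectable with this number of peaks. The whole genome had 8.06 SOX11 peaks per Mb over 2639 Mb, which is below the lower bound for the clusters and inside the interval for the flanks.

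No single cluster was shown to differ from its own flanks either. The ratio of cluster to flanks was 1.92 at Hoxb (0.373 to 12.3), 1.73 at Hoxc (0.322 to 9.28) and 0.632 at Hoxa (0.0120 to 7.87). At Hoxd it was 0, with an upper bound of 11.0. The pooled ratio rests on the Hoxb cluster, which is stretched by a 74.0-kb interval between Hoxb13 and Hoxb9. 3 of the 5 Hoxb peaks lay in that interval, more than 10 kb from any member, in the promoter and introns of the predicted gene Gm53, and so were not among the 19. With the Hoxb cluster taken from Hoxb9 to Hoxb1, those 3 peaks counted as flank, with 7 peaks in clusters and 15 in flanks. The pooled ratio turned to 0.900 (0.310 to 2.34), and with the Hoxb cluster left out it was 1.05 (0.276 to 3.48). The density in the clusters was then 16.9 per Mb (6.78 to 34.8) and 15.7 per Mb (5.10 to 36.7), so in both cases the genome's 8.06 came inside the interval.

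**Figure D2:**
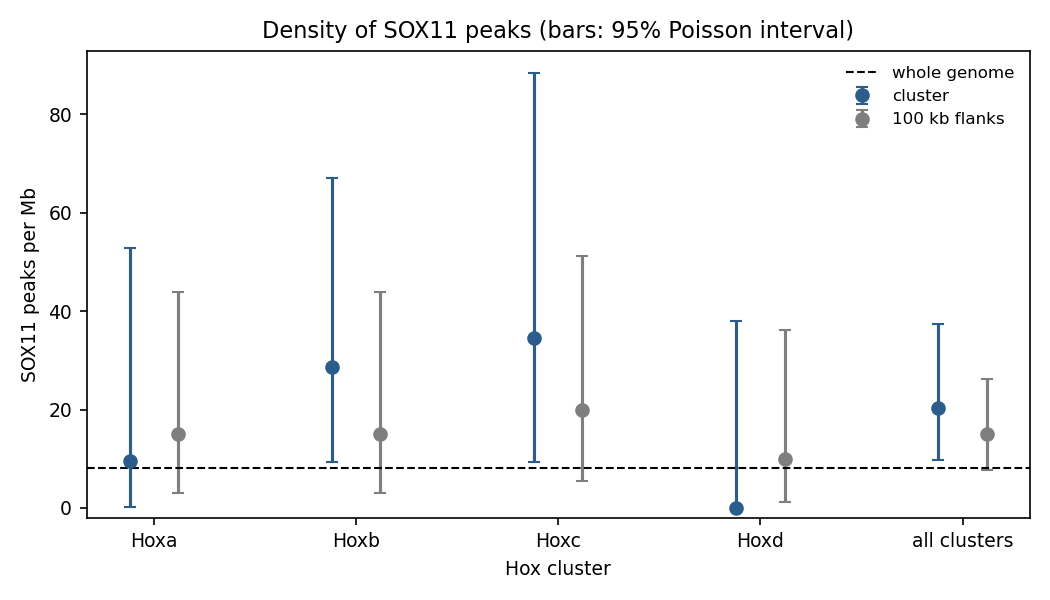
SOX11 peaks per Mb in each Hox cluster and in its 100-kb flanks, with exact 95% Poisson intervals; the dashed line is the whole genome at 8.06 per Mb. The intervals of cluster and flanks overlap at every cluster, and the Hoxd cluster sits at 0 with an upper bound of 38.1 per Mb.

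Set beside all stretches of the genome of the same length, the Hoxb and Hoxc clusters held more SOX11 peaks than most. For Hoxb the count of 5 includes the 3 peaks between Hoxb13 and Hoxb9, and the span from Hoxb9 to Hoxb1 was not set beside windows. Among windows of the length of the Hoxb cluster 90.8% had fewer SOX11 peaks, and for Hoxc 92.6% had fewer. Among windows with the start of a protein-coding gene these shares were 85.8% and 87.6%. Neither set of windows was matched to the clusters in the number of gene starts. The Hoxa cluster's single peak was above 60.3% of all windows and above 40.9% of those with a gene start. A count of 0, as at Hoxd, was found in 61.9% of all windows of that length and in 42.4% of those with a gene start.

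The stretch without a SOX11 peak around Hoxd reached well past the cluster. It ran for 247 kb, from a peak in the promoter of Lnp on one side to a peak in the first part of Mtx2 on the other, and held all 9 Hoxd genes together with Evx2. Of all intervals between neighbouring SOX11 peaks in the genome 91.1% were shorter, and the median interval was 37.1 kb. Long peak-free stretches at the other clusters lay on either side. At Hoxb the widest, 186 kb and longer than 87.9% of all intervals, was at the 5′ end and held Hoxb13. The starts of Hoxb1 to Hoxb6 lay in an interval of 98.1 kb, and those of the Hoxa genes up to Hoxa9 in one of 88.1 kb, longer than 76.4% and 74.0% of all intervals. The starts of Hoxa10, Hoxa11 and Hoxa13 lay in one of 65.5 kb. At Hoxc the widest interval was 50.5 kb and held the start of Hoxc13.

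Of the 39 members, 16 had a SOX11 peak in the body or within 10 kb (41.0%, 25.6 to 57.9), beside 50.7% of all protein-coding genes. The background lies inside the members' interval, so no difference from all genes was detectable by this count. Hox genes are short and closely packed, and neighbours share peaks: the 16 genes were reached by 9 peaks, and the Hoxb7 peak alone was counted for Hoxb6, Hoxb7, Hoxb8 and Hoxb9. With a window of the same length for every gene, 10 kb on each side of the start, 13 members had a peak, beside 39.3% of all genes. Distances to the nearest SOX11 peak were taken from the annotated transcription start of a gene that lay closest to a peak. Their median was 17.5 kb over the members, against 16.4 kb over all genes.

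By cluster, 7 of 9 Hoxc genes had a peak (77.8%, 40.0 to 97.2), 5 of 11 Hoxa genes, 4 of 10 Hoxb genes and 0 of 9 Hoxd genes, where the count of 0 allows a share of up to 33.6%. The intervals of Hoxc and Hoxd do not overlap, but those genes share peaks and 1 peak-free stretch and are not independent counts. Between Hoxa (16.7 to 76.6) and Hoxb (12.2 to 73.8) no difference was detectable.

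**Figure D3:**
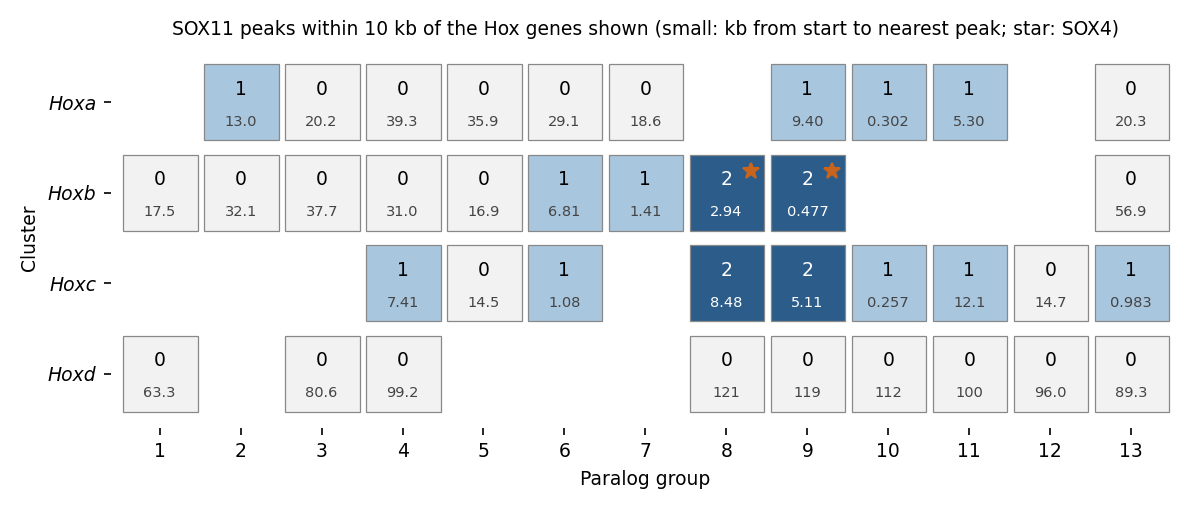
The number of SOX11 peaks in the body or within 10 kb of the members shown, by cluster and paralog group. Small type gives the distance in kb to the nearest SOX11 peak, from the annotated start of the gene closest to a peak. Darker cells have more peaks, from 0 to 2, and stars mark Hoxb8 and Hoxb9, the members with the SOX4 peak; all 9 Hoxd cells are at 0 with distances of 63.3 to 121 kb.

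In the Hoxc cluster, Hoxc8 and Hoxc9 had 2 peaks each, and Hoxc4, Hoxc6, Hoxc10, Hoxc11 and Hoxc13 had 1 each. Hoxc5 and Hoxc12 had 0, with the nearest peak 14.5 and 14.7 kb from their starts. Every Hoxc gene thus had an annotated start within 14.7 kb of a SOX11 peak, which held for no other cluster. For Hoxc4 that start was 7.41 kb from a peak, while 0 peaks lay within 10 kb of its gene start. In the Hoxb cluster, Hoxb8 and Hoxb9 had 2 peaks each and Hoxb6 and Hoxb7 had 1. Hoxb1 to Hoxb5, the genes of the hindbrain and neck, had 0, with the nearest peak 16.9 to 37.7 kb away, and Hoxb13 had 0 at 56.9 kb.

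The Hoxa cluster had its only peak in Hoxa10, 20.4 kb from the 5′ end. Hoxa9, Hoxa10 and Hoxa11 shared it, and Hoxa2, a gene of the hindbrain and the branchial arches, had a peak just beyond the 3′ end of the cluster. Hoxa3 to Hoxa7 had 0, with the nearest peak 18.6 to 39.3 kb from the start, and Hoxa13, a gene of digits and genitalia, had 0 at 20.3 kb. The 9 Hoxd genes, which pattern the limb and trunk, had distances of 63.3 kb (Hoxd1) to 121 kb (Hoxd8).

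Along the clusters, 3 of 12 genes of groups 1 to 4 had a SOX11 peak (25.0%, 5.49 to 57.2), 5 of 11 genes of groups 5 to 8 (45.5%, 16.7 to 76.6) and 8 of 16 genes of groups 9 to 13 (50.0%, 24.7 to 75.3). The intervals overlap widely, so an order from 3′ to 5′ was not shown. Group 9 had the most members with a peak, 3 of 4, followed by groups 6, 8, 10 and 11 with 2 of 3. Groups 3 and 5 had 0 of 3 and group 12 had 0 of 2. The interval was 19.4 to 99.4 for group 9 and up to 70.8% for groups 3 and 5. For every group named it included the 50.7% of all genes, so no difference between groups was shown.

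Peaks at the starts of Hox genes were few. Only 1 of 39 members, Hoxc10, a gene of the lumbar region and hindlimb, had a SOX11 peak in a promoter, taken from 1 kb before to 100 bp after any annotated transcription start (2.56%, 0.0649 to 13.5), beside 23.1% of all genes. Within 1 kb on either side of a start there were 4 members. These were Hoxc10 (0.257 kb from the nearest annotated start), Hoxa10 (0.302 kb), Hoxb9 (0.477 kb) and Hoxc13 (0.983 kb). They made up 10.3% of members (2.87 to 24.2), beside 28.1% of all genes. In both cases the background was above the members' upper bound. 3 of these 4 peaks lay downstream of the start, inside the gene, and the Hoxc10 peak lay upstream. All 4 belong to groups 9 to 13, which hold 16 members (25.0%, 7.27 to 52.4). Groups 1 to 4 had 0 of 12 (up to 26.5%) and groups 5 to 8 had 0 of 11 (up to 28.5%). These intervals overlap, so a difference between groups was not shown.

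SOX11 peaks were more common in promoters rich in CpG than among all genes. Of the members, 16 had a CpG-rich start (41.0%, beside 34.9% of all genes), taken as at least 55% GC and an observed to expected CpG ratio of at least 0.65 around the start, a class set after the promoter counts were seen. None of these 16 had a SOX11 peak in a promoter (0%, up to 20.6%), beside 39.9% of all genes with CpG-rich starts. Within 1 kb of a start there were 2 of 16, Hoxb9 and Hoxc13 (12.5%, 1.55 to 38.3), beside 48.9% of all CpG-rich genes. The class leaves out 2 members with a peak within 1 kb of a start, which lay just below its limits. These were Hoxc10 (58.3% GC, CpG ratio 0.594) and Hoxa10 (54.2%, 0.571). Within the class as set, the share at Hox starts was below that of all CpG-rich genes. The part of CpG content in the lower share was not tested.

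**Figure D4:**
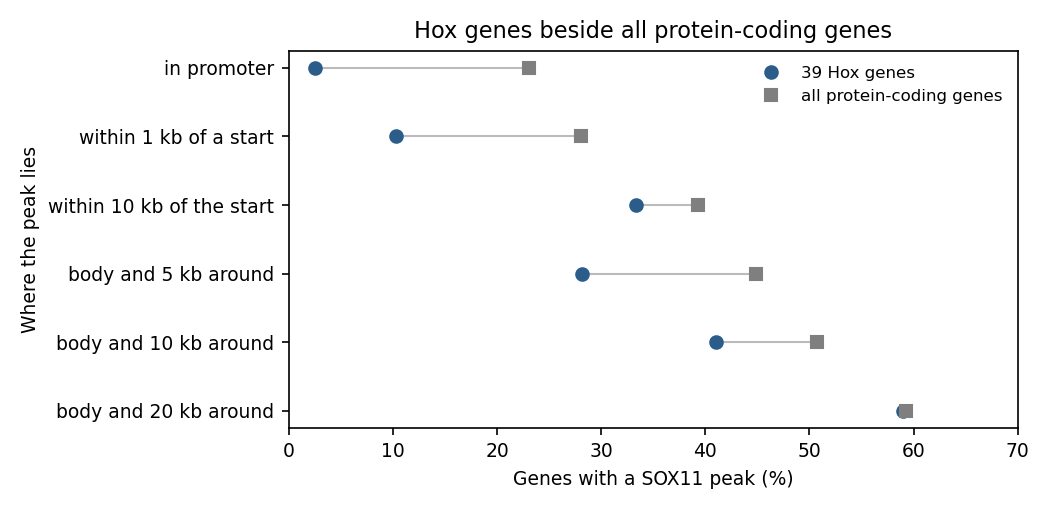
The share of the 39 Hox genes (circles) and of all protein-coding genes (squares) with a SOX11 peak, in percent, for 6 definitions of where the peak lies. The Hox share is 2.56% against 23.1% in promoters and comes up to that of all genes as the window widens, with 41.0% against 50.7% at 10 kb around the body and 59.0% against 59.3% at 20 kb.

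As the window around the gene grew, the Hox genes came closer to the background. With 5 kb around the body 11 members had a peak, beside 44.9% of all genes, and with 20 kb 23 members had one, 59.0% beside 59.3%. At 20 kb the share was level with the background, while in promoters it was below. Neighbouring Hox genes share peaks in the wide windows, so their counts are not independent. The part of this sharing in the change with window size was not tested.

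The 6 members with a peak in the gene body were Hoxa10, Hoxb7, Hoxb9, Hoxc6, Hoxc9 and Hoxc13. The Hoxc13 peak (chr15:102752388-102752645) was in the intron and number 14223 of the list. The Hoxc6 peak (chr15:102829636-102829893), in a gene active in the mammary gland and thorax, was in an intron 1.08 kb from the gene start and number 15134. The Hoxc9 peak (chr15:102812440-102812697), in a gene of thoracic motor neurons, was in a coding exon and number 16352. The earlier numbers were those of Hoxb9 (2652), Hoxb7 (2794) and Hoxa10 (7813). What the order of the list stands for is not stated, so a number is a place in the file and not a strength.

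The peaks in Hoxb9 and Hoxc9 lay at the same place in the paralogous genes, a comparison made after their positions were seen. Each covered the end of the first coding exon, where both hold a SOX word. Below are the last 60 coding bases and the next 10 bases of intron in the 4 genes of group 9, on the strand of the gene, with SOX words in capitals. They come from chr6:52175517-52175586 (minus strand), chr11:96133313-96133382, chr15:102812562-102812631 and chr2:74536831-74536900 (plus strand).
Hoxa9: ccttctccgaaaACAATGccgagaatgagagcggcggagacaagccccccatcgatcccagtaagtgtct
Hoxb9: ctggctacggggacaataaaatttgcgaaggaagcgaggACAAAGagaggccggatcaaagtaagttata
Hoxc9: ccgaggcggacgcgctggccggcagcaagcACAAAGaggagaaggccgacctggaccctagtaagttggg
Hoxd9: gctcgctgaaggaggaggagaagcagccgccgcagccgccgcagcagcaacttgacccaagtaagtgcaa

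In Hoxb9 the word ends 15 bp and in Hoxc9 24 bp before the end of the exon. Hoxa9 has a word of the other form, 42 bp before the end, and no peak there. Hoxd9 has no word in these 60 bases and no peak. These are 4 genes, and a word without a peak, as in Hoxa9, shows that a match alone does not mark a listed peak.

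SOX4 had 1 peak in the Hox set. It lay at chr11:96133074-96133413, in the same coding exon of Hoxb9, and shared 228 bp with the SOX11 peak. It was number 1494 of 2669 in the SOX4 list and also held a SOX word. Hoxb8, a gene known from neural and myeloid cells, was within 10 kb, so 2 of 39 members had a SOX4 peak (5.13%, 0.627 to 17.3), beside 10.2% of all genes. No member had one in a promoter, beside 2.81% of all genes, a rate at which 0 of 39 does not show a lower share. Of the 19 SOX11 peaks 1 overlapped a SOX4 peak (5.26%, 0.133 to 26.0), against 11.9% of all SOX11 peaks, which is inside the interval. Since the SOX4 list is shorter and the depths are unknown, the SOX11 peaks without a SOX4 partner are not shown to lack SOX4.

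In the flanks, 10 SOX11 peaks lay more than 10 kb from any member. Those near Hoxd were at the starts of other genes. The Lnp peak (chr2:74416902-74417159), in the promoter of a gene for a membrane protein of the endoplasmic reticulum, was number 7577. The Mtx2 peak (chr2:74664214-74664471) lay 0.456 kb downstream of an annotated start, inside a gene for a mitochondrial import protein. It was number 929, the earliest of the whole set. At Hoxa, a peak stood at -7.46 kb from the start of Evx1 (chr6:52255906-52256163), a homeobox gene that lies beside the cluster, and another at chr6:52026401-52026658 was 78.8 kb beyond the 3′ end. Evx2, the corresponding gene beside Hoxd, had 0 peaks within 10 kb.

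At Hoxc, 2 flank peaks stood 81.3 and 49.5 kb beyond the 5′ end, between genes. A peak 91.8 kb beyond the 3′ end (chr15:102958995-102959252) lay in the long noncoding RNA gene D930007P13Rik. At Hoxb the 3 flank peaks stood 15.5, 45.6 and 61.9 kb beyond the 3′ end, on the side of Hoxb1 and Skap1, and the 5′ flank with Ttll6 and Calcoco2 held 0. Skap1, a T-cell adaptor gene that starts in this flank, had 2 further peaks in its body beyond 100 kb.

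By place, 10 of the 19 peaks were between genes, 3 in introns, 2 in promoters, 2 in coding exons and 2 in untranslated exons. The share in promoters was 10.5% (1.30 to 33.1), against 23.3% of all SOX11 peaks, which is inside the interval. With promoters taken as 1 kb on each side of a start the share was 6 of 19, 31.6% (12.6 to 56.6), against 28.9% of all SOX11 peaks. The 2 peaks in promoters by the first definition, at Hoxc10 and Lnp, have been named above.

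The median GC content of the Hox peaks was 57.8%, against 51.6% over all SOX11 peaks, whose middle 50% ran from 46.5% to 58.5%. Their median observed to expected CpG ratio was 0.427 against 0.261, with a middle 50% of 0.137 to 0.587, so both medians were inside the usual range of SOX11 peaks. The 9 peaks within 10 kb of a member had medians of 59.3% and 0.667, and the flank peaks 52.3% and 0.319. For comparison, all SOX11 peaks in promoters had a median GC of 64.7% and a CpG ratio of 0.807, and those outside promoters 49.6% and 0.205. The lowest GC was 43.0%, downstream of Hoxc4, and the highest 73.6%, in the Hoxc13 intron.

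The Hox peaks were spread over the whole SOX11 list, with a median number of 10664 against 10635.5 for all peaks. The first 5317 peaks of the list held 4 of the 19, those at Mtx2, Hoxb9, Hoxb7 and Hoxc10. The peaks within 10 kb of members had a median number of 14223. The 3 peaks in Gm53 all stood among the first 10635, at 3626, 5137 and 5841.

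**Figure D5:**
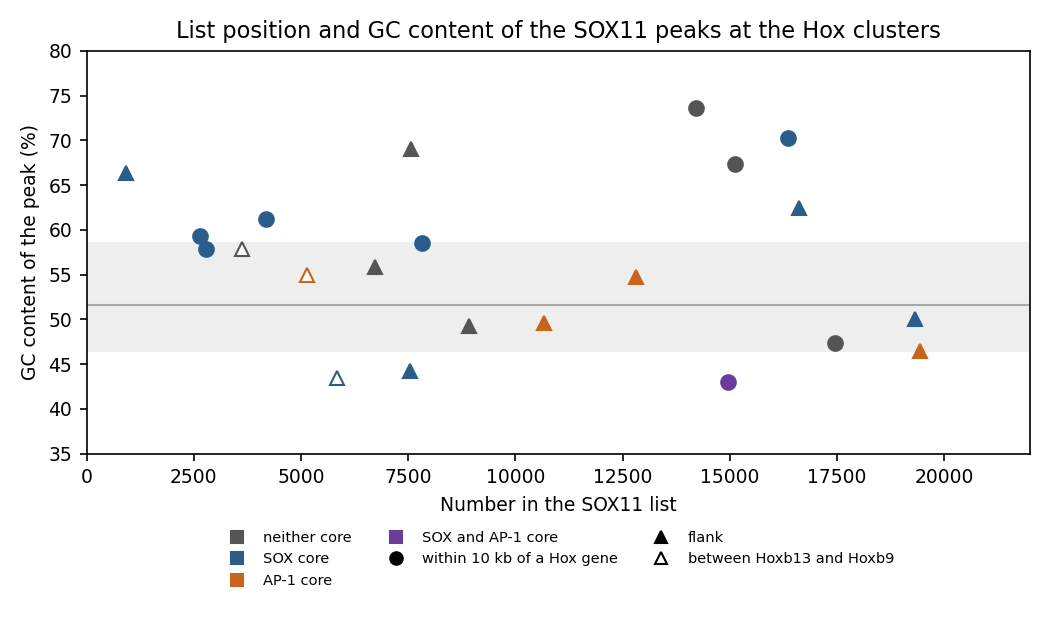
GC content in percent of the 22 SOX11 peaks at the Hox clusters against their number in the list. Circles lie within 10 kb of a member, filled triangles in the flanks and open triangles between Hoxb13 and Hoxb9; colours give the motif words, and the grey band and line are the middle 50% and the median, 51.6%, of all SOX11 peaks.

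A SOX word (CATTGT or CTTTGT on either strand) was found in 10 of the 19 peaks (52.6%, 28.9 to 75.6). All SOX11 peaks had it in 58.5%, and sequences of equal width moved 2 kb downstream in 32.2%. The same shift of the 19 Hox peaks left 3 with a word (15.8%, 3.38 to 39.6). Within 10 kb of members 6 of 9 peaks held it. The peak at Mtx2 held a word 6 bp from its centre and the Hoxc10 peak one 9 bp from its centre, and in Hoxb7 it was also 9 bp away, in Hoxa10 14 bp and in Hoxb9 40 bp.

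The AP-1 word was found in 4 of 19 peaks (21.1%, 6.05 to 45.6), against 28.5% of all SOX11 peaks and 4.59% of shifted ones. Of these 4 only the peak downstream of Hoxc4 was near a member, and the others stood in the Hoxc and Hoxb flanks. Both words together were in 1 of 19 Hox peaks (5.26%) and 17.2% of all peaks, and neither in 6 of 19 (31.6%) and 30.2% of all peaks. The peaks without either word included those in Hoxc13 and Hoxc6, the Lnp promoter and the peak just beyond the 3′ end of Hoxa.

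The TEAD word GGAATG was found in 3 of 19 peaks (15.8%, 3.38 to 39.6; all peaks 22.8%), in Hoxc13, just beyond the 3′ end of Hoxa and in the Hoxb flank. The GC box CCCCGCCC, bound by SP and KLF proteins, was in the Hoxc13 peak only (5.26%, against 10.7%). The words TGATTGAT and TGATTTAT, at which Hox proteins bind with PBX partners, were in 0 of 19 (up to 17.6%) and in 1.26% of all SOX11 peaks. For every word searched, the share among all SOX11 peaks lay inside the interval of the Hox peaks, so no difference in word content was detectable with 19 peaks.

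The clusters also hold microRNA genes. Mir196a-1, Mir196a-2 and Mir196b belong to a family whose mature microRNA pairs with Hoxb8 messenger RNA, and they lie next to the group 9 genes. Mir196a-1 was 4.71 kb from a peak in Gm53, Mir196a-2 was 6.80 kb from the Hoxc10 promoter peak and Mir196b was 10.3 kb from the Hoxa10 peak. Mir615 was 15.6 kb, Mir10a 31.5 kb and Mir10b, in the Hoxd cluster, 100 kb from the nearest SOX11 peak. The antisense gene Hoxa11as was 3.90 kb from the Hoxa10 peak.

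Hox proteins bind DNA with partners of the TALE class. Of 9 genes of such partners 8 had a SOX11 peak in the body or within 10 kb, where all genes had one in 50.7%, 4 had one in a promoter (all genes 23.1%) and 4 had a SOX4 peak (all genes 10.2%). Meis1 had 8 SOX11 peaks and 2 SOX4 peaks, with SOX11 peaks in a promoter among them. Pbx4 had 3 SOX11 peaks, Pknox2 had 2 and Pknox1 had 0. Several of these genes are long (139 kb for Meis1), which gives a peak more room to fall, and the part of gene length in these counts was not tested.

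Of the 8 upstream regulators and relatives of the Hox genes, namely Cdx1, Cdx2, Cdx4, Evx1, Evx2, Gsx1, Gsx2 and Pdx1, 1 had a SOX11 peak within 10 kb, which was Evx1, beside 50.7% of all genes. A SOX4 peak was found at 0 of the 8, beside 10.2% of all genes, a rate at which 0 of 8 does not show a lower share. The Cdx genes, which switch on posterior Hox genes in the embryo, and the ParaHox genes Gsx1, Gsx2 and Pdx1 all had 0. These genes are short, from 2.25 kb for Gsx1 to 17.3 kb for Cdx1.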

How the data were processed

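ChIP-seq was performed on keratinocytes lacking both genes and expressing SOX11-FLAG or SOX4-FLAG. The authors used Bowtie2 for mapping single-end reads to mm9, Picard against duplicates, HOMER for peak calling and bedtools to take out blacklisted regions. Versions of these tools and the peak threshold are not given in the sources used here. The deposited values are peak coordinates (chromosome, start and end), without counts or scores. Starts were read as 0-based and are printed from 1.

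Peaks were placed by their centres on GENCODE genes of the same build. CpG-rich starts were judged over 500 bases on each side. Overlaps needed 1 bp, and windows moved by 50% of their length. Python 3.11.15, numpy 2.4.6, scipy 1.17.1, pysam 0.24.0, samtools 1.23.1 and matplotlib 3.10.9 were used, and the procedures were tested on simulated data. Members with a peak in a promoter or body, neighbouring genes with a peak in theirs, 17 pathway genes and the earliest peak of each cluster were named by rule. Members, lists and rules were chosen with earlier results of these data known. Some members, list genes and sequences are not reported here. No statistical test was run, since 1 list held both replicates.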

Additional observations from a re-analysis of the deposited data

How the results depend on the processing

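For 14 results 50 alternatives were run, of which 39 were planned and 11 were added after seeing the data. Of the 50, 42 stayed within the limits set for a change, which did not always mean a small change. Among these 42, the share of Hox SOX11 peaks in promoters went from 10.5% to 31.6%. The number of members with a SOX11 peak ranged from 11 to 23 among them. Beyond the limits, the number of members with a SOX11 peak fell from 16 to 10 when the list was limited to its first 10635 peaks. That was 25.6% of members, beside 30.9% of all genes. The number was also 10 when each peak was given to the nearest transcription start, 25.6% beside 46.9% of all genes. The number of members with a SOX4 peak fell from 2 to 1 with a reach of 5 kb (2.56%, beside 8.50% of all genes). It was also 1 with the nearest start (2.56%, beside 10.2%). Promoters taken as 1 kb on each side raised the members with a promoter peak from 1 to 4 (10.3%, beside 28.1% of all genes). Among windows with a gene start the share with fewer SOX11 peaks moved from 60.3% to 40.9% for Hoxa, from 90.8% to 85.8% for Hoxb and from 92.6% to 87.6% for Hoxc. The cause of these changes was not tested, beyond the narrower definitions themselves. The ratio of clusters to flanks ranged from 0.900 to 2.28, the highest with the first 10635 peaks (0.622 to 9.10), and every interval included 1. No paired analysis was possible because 1 list held both replicates of each factor, and for the same reason no replicate could be left out. Depth is unknown, so a missing peak may lie under the authors' threshold.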
